A study of Sus scrofa with 6 samples.

Results

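The glutathione, thioredoxin and antioxidant genes of the pig egg are described here across mature oocytes of adult and prepubertal females. They were chosen by name: every probe set whose single gene symbol in the platform's annotation marks a glutathione transferase, glutathione peroxidase, peroxiredoxin, thioredoxin, glutaredoxin, superoxide dismutase, catalase, enzyme of glutathione synthesis or reduction, heme oxygenase, quinone reductase, selenoprotein with a SELENO symbol or methionine sulfoxide reductase. This gave 61 genes read by 89 probe sets, out of 6765 genes with a single symbol and 23999 probe sets in all. A probe set is a group of short array probes read together as 1 signal, and a gene can have several.

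The study measured oocyte RNA on 6 Affymetrix arrays, 3 from adult females (sows) and 3 from prepubertal females (gilts), and the labels name no treatment, genotype or breed for either group. The labels call the adult oocytes developmentally competent and the prepubertal ones incompetent, so the comparison asks how RNA differs between eggs with good and with poor prospects of development. All oocytes came from follicles of 2 to 6 mm, were matured in culture for 42 to 44 h, were stripped of their cumulus cells with hyaluronidase and vortexing, and were checked for the first polar body, the mark of metaphase II. The arrays are labelled as biological replicates, with no number of eggs or donors behind each, so every p-value rests on these 3 and 3 samples. The fit draws the spread of each probe set towards that of all tested probe sets of like signal. Less RNA of a gene per egg and fewer eggs that carry it cannot be told apart in such pools.

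An oocyte lives for a long time, is rich in mitochondria and makes almost no new RNA once it resumes meiosis, so its defence against oxidants rests on proteins and RNAs laid down earlier. Superoxide dismutases turn superoxide into hydrogen peroxide, and catalase, peroxiredoxins and glutathione peroxidases remove the peroxide. Peroxiredoxins are recharged by thioredoxin, and thioredoxin by thioredoxin reductase. Glutathione peroxidases, glutaredoxins and glutathione transferases draw on glutathione, a small thiol that builds up in oocytes during maturation and that the fertilized egg needs to unpack the sperm head. Both chains take their electrons from NADPH.

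The deposited values are MAS5 signals on a linear scale, and the arrays did not share a level: their 2% trimmed mean signals lay between 121 and 160 on the adult and between 105 and 131 on the prepubertal arrays. Over the whole set of tested probe sets the log2 difference, prepubertal minus adult, had a median of -0.20 in the deposited values and of -0.01 once quantile normalization had given every array the same distribution. Signals and differences below are quantile-normalized unless called deposited, with 16 added before log2. Array correlations were 0.978 to 0.980 among adults, 0.968 to 0.974 among prepubertal samples and 0.966 to 0.976 between an adult and a prepubertal array. The oocyte markers ZP2, ZP3, ZP4, GDF9 and BMP15, the 5 of 10 listed that were measured, summed to a signal of 4380 to 5076 in adult and 5395 to 5773 in prepubertal arrays, without overlap after normalization. Of their 5 tested probe sets BMP15 (0.42), ZP2 (0.35) and ZP4 (0.23) had higher values. GDF9 (-0.31) and ZP3 (-0.03) had lower ones. The median log2 difference of the 5 was 0.23, but -0.05 as deposited. BMP15 and ZP2 were higher without overlap after normalization only, and neither passed the threshold. Of 16 cumulus and granulosa cell markers 15 were measured, with a sum of 410 to 423 in adult and 341 to 487 in prepubertal arrays, in which FST (means of 117 in adult and 101 in prepubertal oocytes) and INHBA (116 and 111) were the brightest, while FSHR, STAR and CYP19A1 had mean signals under 10 in both groups. Sums of theca and stroma markers (6 of 8 measured; 90.8 to 136 in adult, 78.2 to 116 in prepubertal), of blood markers (5 of 8; 252 to 406 and 187 to 405, most of it HBB) and of endothelial markers (6 of 6; 98.9 to 155 and 103 to 151) overlapped between groups. Single markers within these sums did not all overlap on their brightest probe sets. FST (log2 difference -0.186) and COL3A1 of the theca and stroma list (-0.747) were lower in prepubertal oocytes without overlap under both scalings. LHCGR of the cumulus and granulosa list (0.570) was higher without overlap under both. COL1A2 of the theca and stroma list was higher without overlap after normalization only. None of these passed the threshold. No marker was at 0, and the part of these sums and single markers in the results below was not tested.

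No antioxidant gene differed between the groups past the threshold. A probe set was tested if its mean log2 value was at or above the median of all, which 55 of the 89 (61.8%) reached, for 46 genes, against 50.0% of the array. At a Benjamini-Hochberg adjusted p of 0.05 over all 12000 tested probe sets, limma called 0 of the 55 (0.117% of all tested probe sets passed, 14 in number), and 0 of the 55 on the deposited values (0.475% of all, 57 in number). The lowest adjusted p of a member was 0.111 (SELENOP) and 0.0654 as deposited (TXNIP). At an unadjusted p under 0.05 there were 11 of 55 (20.0%), 4 lower and 7 higher in prepubertal oocytes, where 5.81% of all tested probe sets were lower and 5.05% higher at that level. On the deposited values there were 8, all lower (13.6% of all tested were lower at that level and 1.14% higher), so the share of higher values among members depends on the scaling. A single array also matters: without prepubertal replicate 1 limma called 1 of 56 tested members, TXN, among 195 probe sets (1.62% of all tested).

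Lower and higher values were mixed. Of the 55 tested probe sets 31 had lower and 24 higher values in prepubertal oocytes (56.4% lower, against 51.1% of all tested), and their median was -0.05 on the log2 scale. As deposited 42 were lower and 13 higher (76.4%, against 74.8% of all), with a median of -0.23. The 11 probe sets that changed sign with the scaling were all higher after quantile normalization and lower as deposited, and differed by at most 0.25 on the log2 scale. Groups did not overlap for 3 members with lower values (8.77% of all tested probe sets had this pattern) and for 6 with higher values (7.54% of all). As deposited they were apart for 11 members, all lower, against 17.1% of all tested that were apart and lower and 1.81% that were apart and higher. These 11 were GSTO1, MGST3, the brightest GSR, PRDX5, PRDX6, both TXN, TXNIP, TXNDC12, GLRX5 and SELENOP probe sets.

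**Figure D1:**
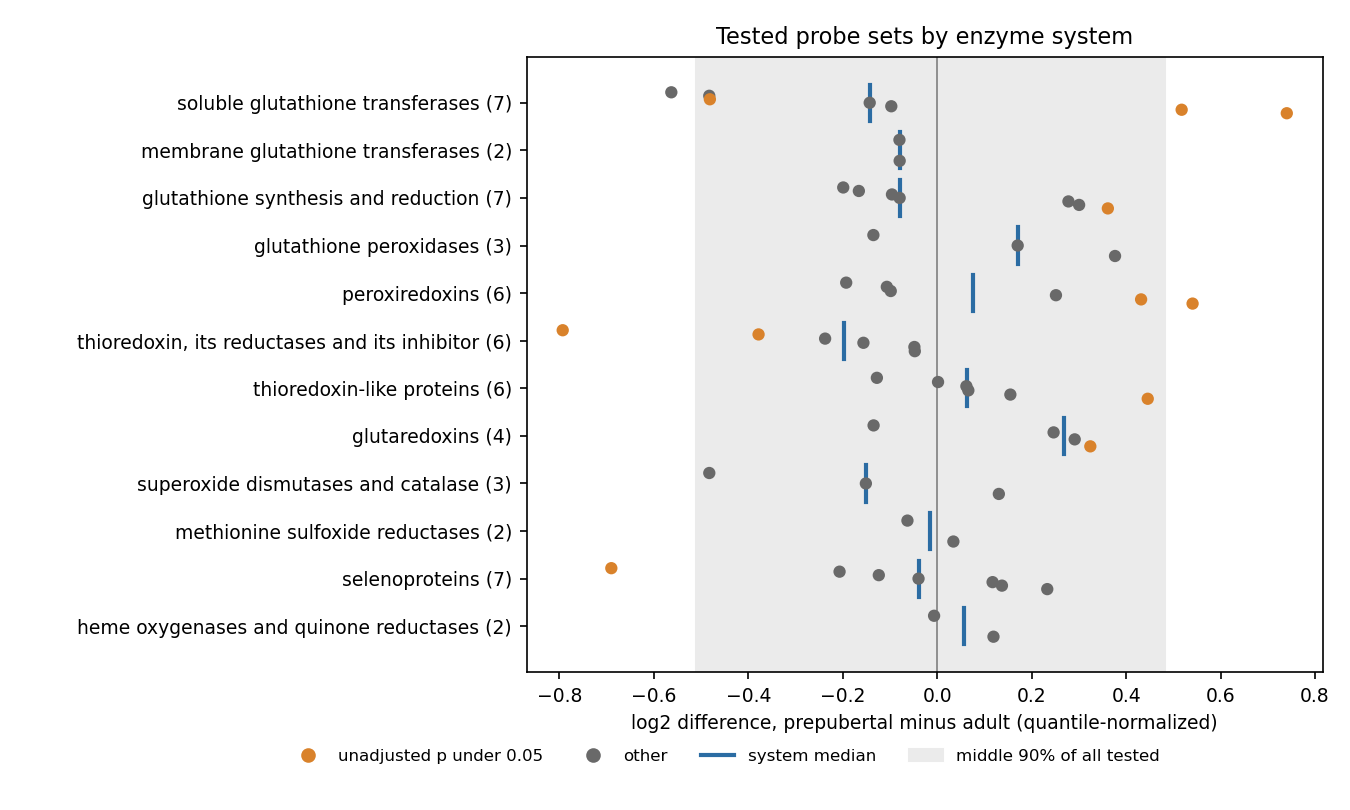
Log2 difference (prepubertal minus adult, quantile-normalized) of each tested probe set in the 12 enzyme systems, with the number of probe sets in brackets, the system median as a blue line and the middle 90% of all 12000 tested probe sets in grey. All 6 probe sets of thioredoxin, its reductases and its inhibitor lie below 0, while 3 of 4 glutaredoxin probe sets lie above it (2 of 4 as deposited).

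The system medians, which carry no test, ran from -0.20 for thioredoxin with its reductases and inhibitor to 0.27 for the glutaredoxins. Between them came superoxide dismutases and catalase (-0.15), soluble glutathione transferases (-0.14), membrane glutathione transferases (-0.08), glutathione synthesis and reduction (-0.08), SELENO selenoproteins (-0.04), methionine sulfoxide reductases (-0.01), heme oxygenases and quinone reductases (0.06), thioredoxin-like proteins (0.06), peroxiredoxins (0.08) and glutathione peroxidases (0.17). As deposited every median was lower, and only those of the glutathione peroxidases (0.10) and glutaredoxins (0.02) stayed above 0. The order depended on the processing: as deposited superoxide dismutases and catalase were lowest (-0.43) and the glutathione peroxidases highest, and the peroxidase median itself turned to -0.06 without prepubertal replicate 3. With 2 to 7 tested probe sets each, each system except the thioredoxin one and the membrane transferases held values on both sides of 0.

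Superoxide dismutases and catalase make and remove hydrogen peroxide. SOD1, the copper and zinc dismutase of the cytosol, had signals of 2712, 3126 and 3295 in adult replicates 1, 2 and 3 and of 3126, 3368 and 3486 in prepubertal ones. The groups overlapped, and the log2 difference was 0.13 ± 0.10 (SE; 95% interval -0.09 to 0.35; limma adjusted p = 0.674), but -0.14 as deposited. CAT, catalase, had signals of 1862, 1914 and 1759 in adult and 1783, 1580 and 1621 in prepubertal oocytes, with a difference of -0.15 ± 0.10 (interval -0.38 to 0.08; adjusted p = 0.629). As deposited CAT differed by -0.43. SOD2, the manganese enzyme of mitochondria, was much dimmer, at 56.8, 38.2 and 47.2 in adult and 50.3, 8.57 and 40.1 in prepubertal oocytes. Prepubertal replicate 2 set most of its difference of -0.48 ± 0.33 (adjusted p = 0.627), which was -0.05 without that array. SOD3, the secreted dismutase, had a mean signal of 5.84 in adult and 11.4 in prepubertal oocytes and was not tested.

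The peroxiredoxins, thiol enzymes that break down hydrogen peroxide, divided between 3 with higher and 3 with lower values. PRDX4, the family member of the endoplasmic reticulum, had signals of 175, 189 and 167 in adult and 235, 270 and 292 in prepubertal oocytes. All 3 prepubertal arrays lay above all adult ones, 1.45-fold in the fit (log2 difference 0.54 ± 0.16 SE, unadjusted p = 0.00476, limma adjusted p = 0.220). As deposited the difference was 0.28 and the groups overlapped. PRDX1, an abundant cytosolic peroxiredoxin in many cells, had 147, 194 and 145 in adult and 181, 266 and 226 in prepubertal oocytes, with overlap (0.43 ± 0.19, adjusted p = 0.429; 0.17 as deposited). PRDX3, the mitochondrial form, had a difference of 0.25 ± 0.25. Cytosolic PRDX2 had signals of 1418, 1665 and 1078 in adult and 1312, 1258 and 1255 in prepubertal oocytes, so that its adult arrays spread on both sides of the prepubertal ones (-0.10 ± 0.15, adjusted p = 0.857). PRDX5 and PRDX6, at -0.19 ± 0.24 and -0.11 ± 0.19, also overlapped, but were lower without overlap as deposited (both -0.28, adjusted p = 0.651 and 0.576).

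Of 11 glutathione peroxidase probe sets only 3 were bright enough to be tested. These selenium or cysteine enzymes reduce peroxides with glutathione. GPX1, the cytosolic form, had signals of 151, 74.7 and 93.6 in adult and 66.2, 123 and 94.0 in prepubertal oocytes. Adult replicate 1 was the highest and prepubertal replicate 1 the lowest, and the difference of -0.13 ± 0.26 (adjusted p = 0.886) turned to 0.11 without adult replicate 1 and to 0.06 without prepubertal replicate 1. GPX2, best known from the gut, had 53.9, 66.6 and 33.0 against 40.1, 87.9 and 90.3 (0.38 ± 0.28, adjusted p = 0.656). GPX5, known from the epididymis, was near the filter, at 9.11, 27.8 and 15.6 in adult and 14.6, 16.2 and 34.4 in prepubertal oocytes (0.17 ± 0.31). Both probe sets of GPX4, which repairs oxidized membrane lipids, lay below the filter, with means of 12.8 and 8.36 in adult and 15.6 and 5.70 in prepubertal oocytes. GPX3, GPX6 and GPX7 were not tested either.

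In the thioredoxin system all 6 tested probe sets had a log2 difference below 0 under each of the 4 scalings tried. Only 4 of 6 did without adult replicate 2, and 5 of 6 without adult replicate 3, without prepubertal replicate 1 or with array weights. TXN, thioredoxin itself, the small dithiol protein that recharges peroxiredoxins and ribonucleotide reductase, had signals of 4031, 5135 and 4274 in adult and 4109, 3097 and 3158 in prepubertal oocytes. Prepubertal replicates 2 and 3 lay below all adult arrays, and replicate 1 lay above the lowest of them. The log2 difference was -0.38 ± 0.13 (SE; 95% interval -0.65 to -0.10; limma adjusted p = 0.303), and -0.65 as deposited, where the groups did not overlap (adjusted p = 0.0982). Leaving out prepubertal replicate 1 gave -0.51 (adjusted p = 0.0459), and leaving out any of the other arrays gave adjusted p from 0.350 to 0.670. A dimmer TXN probe set had means of 232 ± 21.8 and 224 ± 19.4 (SD, n = 3), with overlap and a difference of -0.05 ± 0.16. As deposited it differed by -0.31 and its groups did not overlap (adjusted p = 0.523).

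TXNIP, which binds thioredoxin and blocks it, had the lowest difference of all members. Its signals were 304, 339 and 236 in adult and 117, 147 and 238 in prepubertal oocytes. Prepubertal replicates 1 and 2 lay well below the adult arrays, while replicate 3 was level with the lowest adult one. The values were 1.73-fold lower in prepubertal oocytes (log2 difference -0.79 ± 0.23 SE, unadjusted p = 0.00482, limma adjusted p = 0.220). As deposited they were 2.08-fold lower and the groups did not overlap (adjusted p = 0.0654). The difference ran from -1.06 to -0.58 as each array was left out. Thioredoxin reductases pass electrons from NADPH to thioredoxin. The tested TXNRD1 probe sets had differences of -0.24 ± 0.28 and -0.16 ± 0.29. A further TXNRD1 probe set, below the filter, had signals of 2.45, 2.60 and 3.56 in adult and 17.6, 22.7 and 14.2 in prepubertal oocytes, without overlap and opposite in sign to the others. It had an adjusted p of 0.340 in a fit without the filter. TXN2, mitochondrial thioredoxin, had signals of 52.4, 80.5 and 47.6 in adult and 25.1, 89.0 and 72.1 in prepubertal oocytes. Its mean signal was slightly higher in prepubertal oocytes (60.1 ± 17.8 and 62.0 ± 33.1, SD, n = 3) while its log2 difference was -0.05 ± 0.32, so it had no clear direction.

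**Figure D2:**
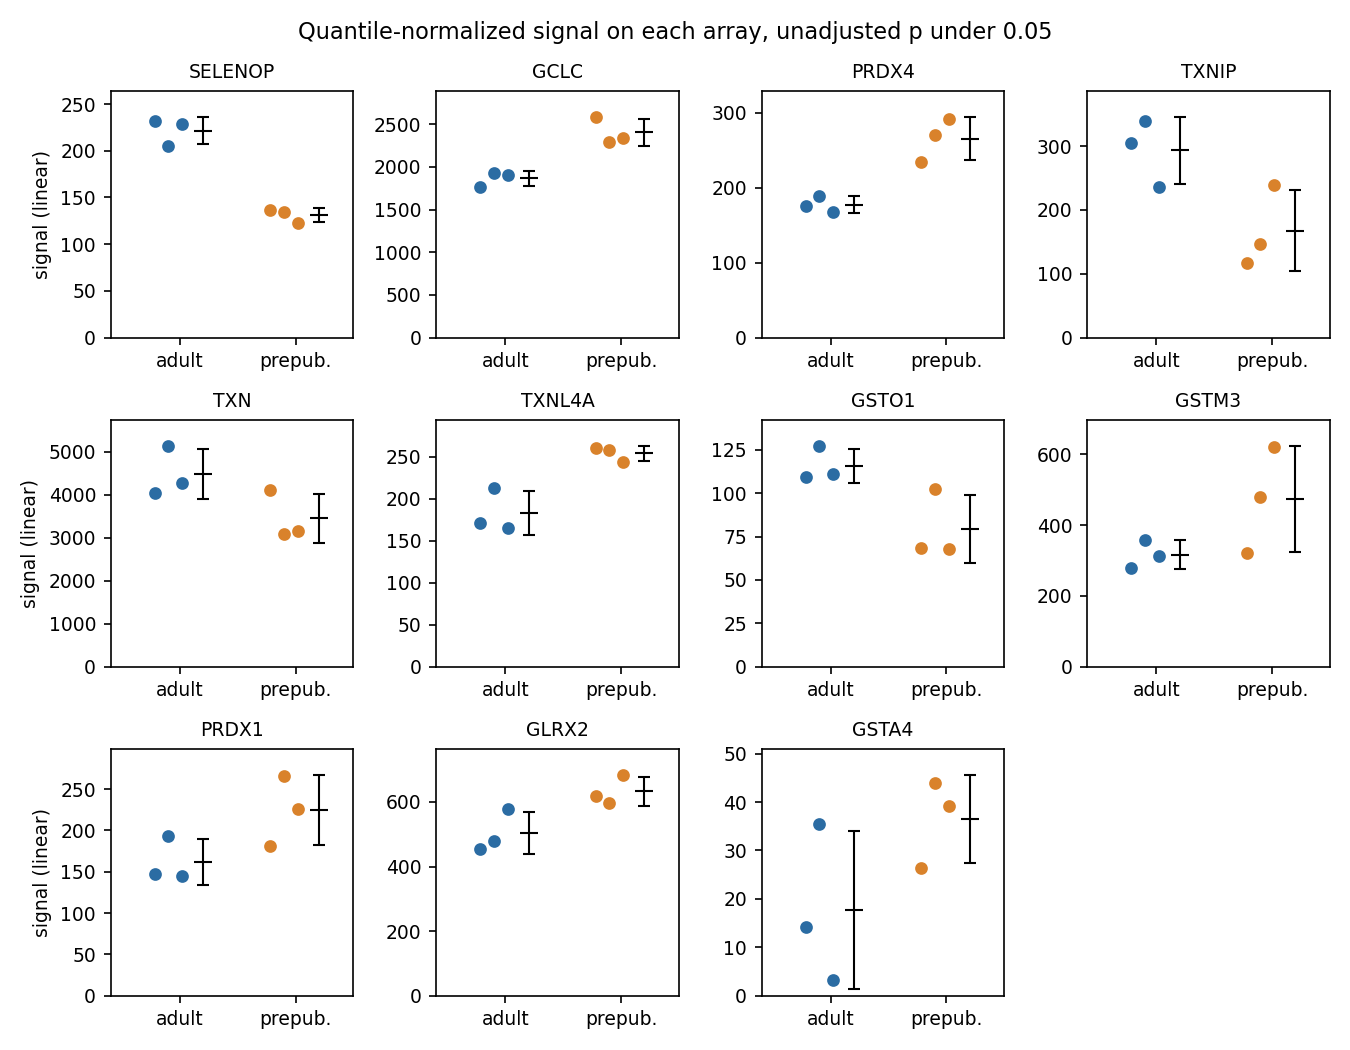
Quantile-normalized signal (linear axis from 0) on each of the 3 adult and 3 prepubertal arrays for the 11 member probe sets with an unadjusted p under 0.05; black marks give the mean and SD. SELENOP, GCLC, PRDX4, TXNL4A, GSTO1 and GLRX2 separate the groups without overlap, while the other 5 overlap.

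The thioredoxin-like proteins share the thioredoxin fold and serve other roles. Those read by bright probe sets gave close values. TXNDC17, a cytosolic disulfide reductase, had 1373 ± 172 in adult and 1368 ± 50.1 in prepubertal oocytes (SD, n = 3; log2 difference 0.00 ± 0.12 SE; 95% interval -0.26 to 0.26). Both bright TXNL1 probe sets differed by 0.06 ± 0.13 and 0.07 ± 0.14. TXNDC9, a thioredoxin-domain partner of cytosolic chaperonin, had signals of 4502, 4160 and 4514 in adult and 4899, 5058 and 4714 in prepubertal oocytes. Its groups did not overlap, yet the difference was small (0.16 ± 0.08, adjusted p = 0.525) and was -0.08 as deposited. TXNL4A, a component of the spliceosome rather than an antioxidant, had 171, 213 and 165 in adult and 260, 258 and 244 in prepubertal oocytes. It was 1.36-fold higher without overlap (0.45 ± 0.16, unadjusted p = 0.0159, limma adjusted p = 0.332; 0.18 as deposited). TXNDC12, of the endoplasmic reticulum, had 29.9, 33.9 and 31.9 in adult and 26.2, 28.9 and 28.4 in prepubertal oocytes (-0.13 ± 0.22, adjusted p = 0.878), apart by a small margin.

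The glutaredoxins, which use glutathione to reduce disulfides or to carry iron-sulfur clusters, had the highest median of the systems after quantile normalization, but not as deposited. GLRX2, a glutaredoxin of mitochondria, had signals of 455, 478 and 579 in adult and 617, 597 and 683 in prepubertal oocytes. The groups did not overlap, and the difference was 0.32 ± 0.14 (SE; unadjusted p = 0.0394, limma adjusted p = 0.433), or 0.04 as deposited, where they overlapped. GLRX3, an iron-sulfur cluster chaperone of the cytosol, had 69.9, 60.0 and 60.4 against 70.6, 93.1 and 80.7 (0.29 ± 0.19, adjusted p = 0.596), apart by less than 1 signal unit. GLRX, the cytosolic enzyme, differed by 0.25 ± 0.17 and by -0.01 as deposited. GLRX5, the mitochondrial iron-sulfur carrier, had 321 ± 20.7 in adult and 291 ± 11.9 in prepubertal oocytes (-0.13 ± 0.14), opposite in sign to the rest of the family.

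Glutathione is made by glutamate-cysteine ligase (GCLC with its modifier GCLM) and glutathione synthetase (GSS), and is reduced again after use by glutathione reductase (GSR). GCLC, the catalytic and rate-limiting subunit, had signals of 1768, 1932 and 1904 in adult and 2585, 2295 and 2338 in prepubertal oocytes on its brightest probe set. All prepubertal arrays lay above all adult ones, 1.28-fold in the fit (log2 difference 0.36 ± 0.10 SE; 95% interval 0.14 to 0.58; unadjusted p = 0.00376, limma adjusted p = 0.199). As deposited the difference was 0.09 with overlap. The other 3 tested GCLC probe sets were dim and overlapped. The first had 20.8, 31.2 and 18.9 in adult and 29.7, 34.3 and 30.9 in prepubertal oocytes (0.28 ± 0.24). The second had 36.3, 42.9 and 16.5 against 29.7, 32.9 and 13.6 (-0.20 ± 0.30), and the third 86.7, 49.6 and 43.7 against 74.7, 46.3 and 44.3 (-0.08 ± 0.25), so GCLC had no single direction. GCLM had 56.5 ± 10.5 in adult and 48.5 ± 7.59 in prepubertal oocytes (SD, n = 3; -0.17 ± 0.21). GSR had signals of 4190, 3631 and 3804 in adult and 3515, 3486 and 3868 in prepubertal oocytes on its brightest probe set, with overlap (-0.10 ± 0.09, interval -0.30 to 0.11). A dim GSR probe set had 38.9, 27.0 and 27.1 in adult and 45.4, 45.6 and 34.4 in prepubertal oocytes (0.30 ± 0.22), and the GSS probe sets lay below the filter.

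**Figure D3:**
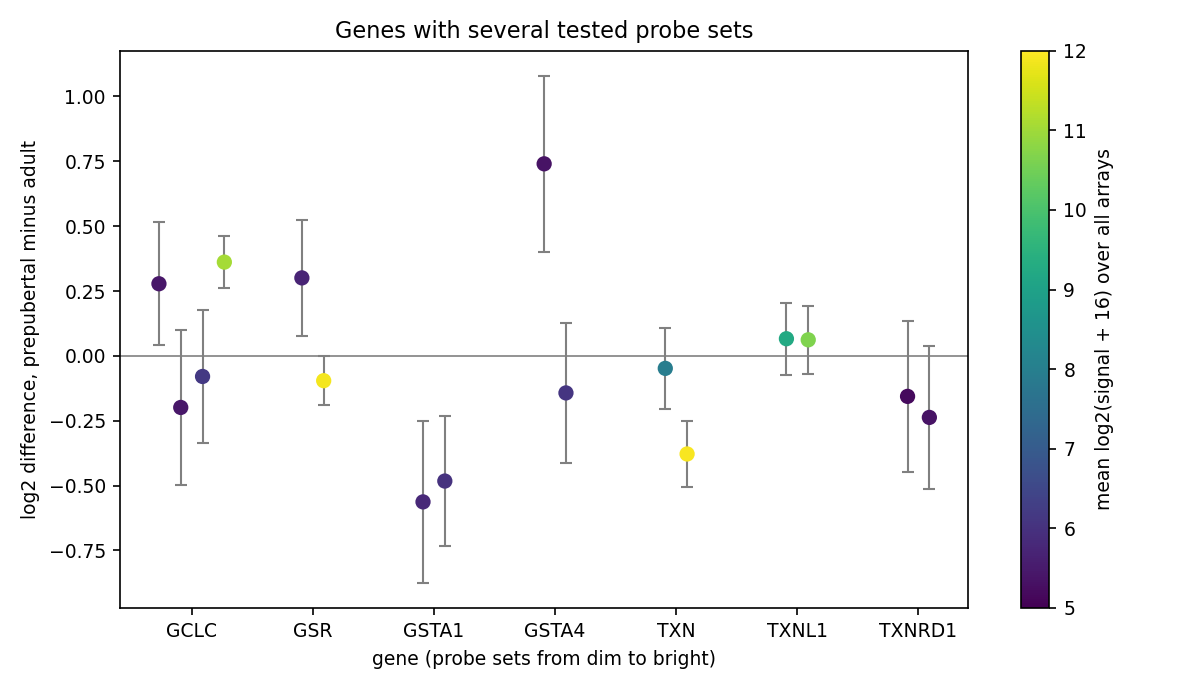
Log2 difference (prepubertal minus adult, quantile-normalized, bars are SE of the limma fit) of every tested probe set of the 7 genes with more than 1, ordered from dim to bright within a gene and coloured by mean log2 signal. The probe sets of GSTA1, TXN, TXNL1 and TXNRD1 share a sign, and those of GCLC, GSR and GSTA4 do not.

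Glutathione transferases join glutathione to reactive compounds. Among the soluble ones GSTM3, of the mu class, had signals of 278, 359 and 313 in adult and 322, 479 and 621 in prepubertal oocytes. Prepubertal replicates 2 and 3 exceeded all adult arrays and replicate 1 did not (0.52 ± 0.21 SE, unadjusted p = 0.0294, limma adjusted p = 0.394; 0.24 as deposited). GSTO1, of the omega class, which also reduces dehydroascorbate, had 109, 127 and 111 in adult and 68.6, 102 and 68.0 in prepubertal oocytes. Its groups did not overlap under either scaling, and it was 1.40-fold lower (-0.48 ± 0.19, unadjusted p = 0.0288, adjusted p = 0.393; -0.69 as deposited). GSTA1, an alpha-class enzyme abundant in steroid-making cells, had lower values on both tested probe sets, at -0.56 ± 0.31 and -0.48 ± 0.25, with overlap. The cumulus and granulosa marker sums given above overlapped between the groups, although FST was lower and LHCGR higher without overlap. The part of these markers in the GSTA1 values was not tested. The 2 tested GSTA4 probe sets opposed each other, at 0.74 ± 0.34 on the dimmer one (14.3, 35.4 and 3.33 in adult, 26.4, 43.9 and 39.2 in prepubertal oocytes) and -0.14 ± 0.27 on the other (71.1, 36.4 and 63.93 against 58.4, 29.6 and 63.97). GSTZ1, of the zeta class, differed by -0.10 ± 0.30. Membrane-bound MGST3 had 463, 504 and 456 in adult and 425, 471 and 449 in prepubertal oocytes, with overlap (-0.08 ± 0.13, interval -0.37 to 0.21), and MGST1 was dim, at 25.5, 21.7 and 13.1 against 20.1, 9.80 and 25.4 (-0.08 ± 0.29).

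Selenoproteins carry selenocysteine, and the SELENO members included the gene with the smallest p of the whole set. SELENOP, the secreted carrier that delivers selenium to other cells, had signals of 231, 205 and 228 in adult and 136, 134 and 123 in prepubertal oocytes. The groups were far apart for their spread, with means of 222 ± 14.5 and 131 ± 7.12 (SD, n = 3). SELENOP was 1.61-fold lower in prepubertal oocytes (log2 difference -0.69 ± 0.16 SE; 95% interval -1.03 to -0.35; unadjusted p = 0.000836, limma adjusted p = 0.111) and 1.90-fold lower as deposited (adjusted p = 0.0814). It kept its sign in all 17 settings tried, with adjusted p from 0.0612 to 0.346, so it stayed short of the threshold throughout. Among the 6 others tested, SELENOF, of the endoplasmic reticulum, had 830, 909 and 1042 in adult and 862, 1219 and 1224 in prepubertal oocytes (0.23 ± 0.15, adjusted p = 0.610; -0.05 as deposited). SELENOT, also of the endoplasmic reticulum, differed by 0.14 ± 0.18, SELENOH by 0.12 ± 0.16, SELENON by -0.04 ± 0.27, SELENOW by -0.12 ± 0.18 and SELENOS by -0.21 ± 0.29.

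The remaining systems were dim. Methionine sulfoxide reductases repair oxidized methionine. The tested MSRA probe set had signals of 36.7, 32.8 and 42.0 in adult and 53.3, 30.0 and 25.0 in prepubertal oocytes (-0.06 ± 0.25), and MSRB3 had 3.62, 31.1 and 31.9 against 28.6, 15.1 and 18.3 (0.03 ± 0.35). Heme oxygenases break down heme and quinone reductases reduce quinones. HMOX2, the constitutive heme oxygenase, had 75.4, 53.1 and 47.3 in adult and 40.5, 78.2 and 80.3 in prepubertal oocytes (0.12 ± 0.25), and NQO2 had 72.5, 58.7 and 55.6 against 49.7, 53.1 and 86.9 (-0.01 ± 0.22). In each of these the groups overlapped. HMOX1 and NQO1, the inducible members and standard targets of the antioxidant response, lay below the filter, at means of 14.3 and 14.3 for HMOX1 and 7.41 and 13.3 for NQO1 (adult first).

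The 34 untested probe sets had group mean signals between 1.63 and 20.4. For 15 genes no probe set was tested: GSTK1, GSS, GPX3, GPX4, GPX6, GPX7, TXNRD3, TXNDC15, SOD3, MSRB1, MSRB2, SELENOI, SELENOM, HMOX1 and NQO1. Beside the TXNRD1 probe set above, 3 of the 34 separated the groups, so that in all 2 were apart and lower and 2 apart and higher (4.86% and 5.22% of all probe sets below the filter had these patterns): MSRB1 (11.9, 30.3 and 6.59 in adult; 3.26, 5.85 and 1.92 in prepubertal oocytes), 1 of 3 for TXNDC15 (14.2, 17.1 and 20.5; 4.90, 4.58 and 5.90) and an MSRA probe set (4.92, 2.72 and 3.39; 7.11, 10.5 and 16.7). Among tested members the SE of the log2 difference, fitted with an intensity trend, had a median of 0.13 over the 16 probe sets with a mean log2 value of 8 or more and of 0.25 over the 39 below 8.

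**Figure D4:**
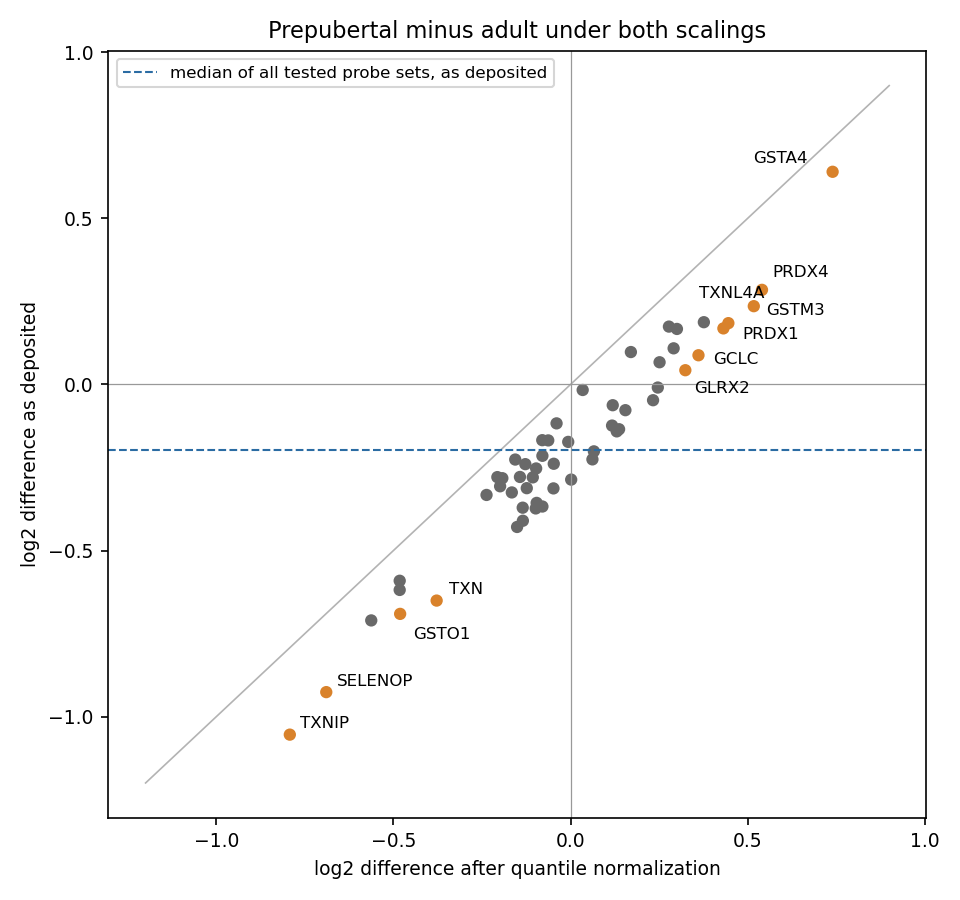
Log2 difference (prepubertal minus adult) of the 55 tested member probe sets after quantile normalization (x axis) and as deposited (y axis), with the 11 at an unadjusted p under 0.05 in orange, the line of equality in grey and the deposited median of all tested probe sets (-0.20) dashed. Every point lies below the line of equality, and the 11 named points keep their sign under both scalings.

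Every tested member had a lower difference as deposited than after quantile normalization. The 11 members at an unadjusted p under 0.05 kept their sign in all 17 settings. They were picked by p in these same arrays, so their stable signs are no independent evidence. Higher values shrank as deposited, from 0.36 to 0.09 for GCLC and from 0.32 to 0.04 for GLRX2, while lower values grew, from -0.69 to -0.93 for SELENOP. Relative to the deposited median of -0.20, GCLC and GLRX2 lay above and SELENOP, TXNIP, TXN and GSTO1 below the median of all tested probe sets under both scalings.

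Other genes of the antioxidant pathway were read from lists of suppliers and regulators. Of 9 tested probe sets for NADPH supply, from 8 genes, 8 had lower values, with a median of -0.08 (-0.30 as deposited), and none passed after normalization. Of all tested probe sets 51.1% had lower values (74.8% as deposited). PGD, which makes NADPH in the pentose phosphate pathway, had signals of 102, 121 and 73.4 in adult and 50.9, 46.4 and 40.3 in prepubertal oocytes, without overlap (-0.87 ± 0.21 SE, limma adjusted p = 0.127). On the deposited values it was past the threshold (-1.03, adjusted p = 0.0497). MTHFD2, which makes NADPH or NADH in mitochondrial folate metabolism, followed at -0.28 ± 0.13 (adjusted p = 0.450). In the cysteine and glutathione supply list 8 of 12 tested probe sets, from 8 genes, had higher values (median 0.12, -0.03 as deposited) and 0 passed. MAT2B, the regulatory subunit of the enzyme that makes S-adenosylmethionine, had higher values on all 3 of its probe sets. Its lowest p came from signals of 210, 290 and 284 in adult and 493, 439 and 522 in prepubertal oocytes (0.86 ± 0.16, adjusted p = 0.0613; 0.59 and 0.245 as deposited). The others differed by 0.54 ± 0.16 and 0.43 ± 0.22.

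Of the other redox genes 6 of 9 tested probe sets, from 7 genes, had lower values (median -0.17, -0.40 as deposited; 51.1% of all tested were lower) and 0 passed. FTL, the ferritin light chain that stores iron, had signals of 2162, 2504 and 2081 in adult and 2710, 2670.1 and 2580.3 in prepubertal oocytes (0.24 ± 0.10, adjusted p = 0.419; -0.04 as deposited). An FTL probe set below the filter had means of 12.4 in adult and 14.0 in prepubertal oocytes, with overlap. CCS, which delivers copper to SOD1, differed by -0.46 ± 0.22 (adjusted p = 0.480) without overlap on its tested probe set. A CCS probe set below the filter had the opposite sign, also without overlap. Its signals were 1.45, 0.98 and 1.96 in adult and 2.89, 3.22 and 2.77 in prepubertal oocytes. The selenium list, with 4 tested probe sets, had a median of 0.03 (-0.25 as deposited). SEPHS2, which makes the selenium donor, differed by -0.01 ± 0.11 on its brightest probe set and by -0.32 ± 0.24 and 0.09 ± 0.25 on both dim ones, and LRP8, a receptor for SELENOP, by 0.06 ± 0.17. Of the 10 regulators only SQSTM1, an adaptor that binds KEAP1, had a probe set with a single symbol (0.17 ± 0.11, adjusted p = 0.596).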

How the data were processed

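RNA of mature pig oocytes was hybridized to 6 Affymetrix arrays, 3 adult and 3 prepubertal. Per the labels' protocols, polyadenylated RNA was isolated on beads, amplified in a two-cycle protocol and labelled with biotin, so a signal also depends on the poly(A) tail, which changes for many stored mRNAs during maturation. The deposited intensity values are MAS5 signals made by the authors, per the submitters' processing notes; no version or scaling target is given in the sources used here. All 6 value columns matched a sample and 0 did not. The 124 control probe sets were left out. The other 23999 were quantile-normalized, because the deposited arrays did not share a level, and log2(signal + 16) was tested for prepubertal minus adult differences by limma 3.58.1 (R 4.3.3; lmFit and eBayes, intensity trend on), 2-sided, adjusting by Benjamini-Hochberg across the 12000 probe sets at or above the median mean log2 value and a threshold of 0.05. The added constant understates folds of dim genes, and the number of arrays limits the precision.

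Symbols came from the platform's annotation (10069 probe sets with 1 symbol, 198 with several, 13732 not listed and unnamed here). Looking them up in RefSeq's gene table for Sscrofa11.1 changed the membership of 0 probe sets. TXNL4B and SELENOK were read only by probe sets with several symbols and were left out. The signals name no genome build, so no coordinates are printed, and no sequence table was used here. Every member gene could be named. Values on each array are given for members past the threshold, for the 2 with the smallest p and the brightest in each system, and for further members that separated the groups, opposed another tested probe set of their gene or passed an unadjusted p of 0.05. Of the pathway lists, those past the threshold and the 2 with the smallest p of each list were named, with further probe sets of those genes and with LRP8. The members and lists were chosen with earlier results of these data known, so no list carries a test. Cell type markers were summed over the brightest probe set of each gene. Whether the replicate numbers pair the arrays is not known: same-numbered arrays' deviations from their group means correlated at 0.08, 0.02 and 0.03. These values have no differently numbered pairs beside them and cannot settle it. The alternatives were other scalings, added constants, filters and variance models, array weights, a replicate block, the brightest probe set per gene, updated symbols and leaving out each array. Simulated arrays with known changes were used to check the fit.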

Additional observations from a re-analysis of the deposited data

How the results depend on the processing

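With 3 arrays a group, a single array moves counts and medians. The number of members past the threshold was 0 in every setting except without prepubertal replicate 1, where it was 1 (range 0 to 1 over the left-out arrays). Without that array 1.62% of all tested probe sets passed. The 11 members at an unadjusted p under 0.05, picked in these same arrays, kept their sign in all 17 settings. The replicate block, a pairing that the arrays' deviations cannot settle, called 33 of all tested probe sets in place of 14 and 0 members. All tested probe sets past the threshold numbered 57 as deposited, 7 with median centring, 2 with an added constant of 1, 28 with 64, 2 without a filter (14 members at an unadjusted p under 0.05), 55 with the upper quartile filter, 0 without an intensity trend in limma (6 members at an unadjusted p under 0.05) and 84 with array weights, and between 0 (without adult replicate 2) and 195 (without prepubertal replicate 1) as each array was left out.

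The median log2 difference of the tested members (-0.05) was -0.23 as deposited, -0.14 with median centring, 0.064 with the upper quartile filter and -0.039 to 0.0038 over the left-out arrays. As deposited the medians were -0.27 for membrane glutathione transferases, -0.21 for glutathione synthesis and reduction, -0.11 for peroxiredoxins, -0.21 for thioredoxin-like proteins, 0.017 for glutaredoxins and -0.43 for superoxide dismutases and catalase. Median centring gave -0.13 for thioredoxin-like proteins, 0.10 for glutaredoxins and -0.34 for superoxide dismutases and catalase, and an added constant of 64 gave 0.20 for glutaredoxins. The glutathione peroxidases exceeded the glutaredoxins as deposited (0.098), with median centring (0.18), with an added constant of 1 (0.32 against 0.30) and without adult replicate 2 (0.39 against 0.28). Superoxide dismutases and catalase were the lowest system under each scaling except quantile normalization. The upper quartile filter, which tests fewer probe sets, gave 0.13 for glutathione synthesis and reduction, 0.25 for peroxiredoxins, -0.38 for the thioredoxin system, 0.12 for selenoproteins, -0.13 for glutathione peroxidases and -0.010 for superoxide dismutases and catalase (also -0.010 without a filter). Over the left-out arrays the medians ran from -0.38 to -0.0027 for soluble glutathione transferases, -0.11 to 0.16 for glutathione synthesis and reduction, -0.066 to 0.21 for peroxiredoxins, -0.057 to 0.39 for glutathione peroxidases, -0.29 to -0.087 for the thioredoxin system, 0.0061 to 0.13 for thioredoxin-like proteins, 0.19 to 0.32 for glutaredoxins and -0.21 to -0.046 for superoxide dismutases and catalase.

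Small differences of named members turned sign. As deposited TXNDC9 was at -0.077, SOD1 at -0.14 (-0.057 with median centring), SELENOF at -0.047, HMOX2 at -0.062 and MSRB3 at -0.017. With a common trimmed mean MSRA was at 0.014 and NQO2 at 0.044. An added constant of 64 gave -0.011 for MSRB3 and 0.0014 for NQO2, and array weights -0.075 and 0.082. Without 1 array, in turn, the range was -0.23 to 0.12 for MGST1, -0.33 to 0.11 for GPX1, -0.057 to 0.39 for GPX5, -0.27 to 0.042 for PRDX2, -0.29 to 0.092 for MSRA, -0.38 to 0.25 for MSRB3, -0.013 to 0.37 for HMOX2 and -0.21 to 0.11 for NQO2. The cause of these changes was not tested.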
